A study of Mus musculus with 12 samples.

Results

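The SLC25 family is the group of membrane proteins that carries metabolites, nucleotides, cofactors and ions across the inner membrane of the mitochondrion. It was described here in 3T3-L1 adipocytes, fat cells differentiated from a mouse fibroblast line, treated with berberine, a plant alkaloid. Genes were taken as members where the array's annotation gave a probe set that single gene symbol and the symbol read Slc25a followed by a digit. This gave 44 of the 18193 genes with a single symbol, on 93 probe sets. Of these, 37 passed the filter on dim values and were tested, among 12136 genes tested in all.

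Each of the 4 groups held 3 arrays. All cells had been induced with insulin, dexamethasone and IBMX, were used 8 to 10 days into differentiation, and were kept in DMEM with bovine serum albumin for 12 h. Treatment was with DMSO, the solvent, or with berberine at 5 µM for 3, 6 or 12 h. The labels give the change in gene expression under berberine as the question. They do not say how long the DMSO cells were incubated, so an effect of berberine and one of time in culture cannot be told apart. They also do not say whether the 3 samples of a group were separate cultures, so the p-values reflect how far these samples spread, and that spread may be purely technical. All cells came from a single cell line, and only RNA was measured, not the carriers' protein or transport.

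SLC25 carriers are encoded in the nucleus, made in the cytosol and inserted into the inner membrane by a dedicated import path. Each exchanges or imports particular solutes, so that the family sets what enters and leaves the matrix: ADP and phosphate for ATP synthesis, citrate for fatty acid synthesis, acylcarnitines for fatty acid oxidation, iron for haem and iron-sulfur clusters, and the nucleotides and cofactors the matrix needs. In fat cells the citrate carrier is known for exporting carbon for lipogenesis, and the brown fat uncoupling protein belongs to the same family.

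The arrays were alike in overall signal. Correlations between arrays over all probe sets, which are not independent replicates, ran from 0.910 to 0.924 within groups and from 0.907 to 0.923 between groups. Of the mature adipocyte markers, 8 of 10 were tested, with Adipoq at 15.05 to 15.62, Fabp4 at 15.47 to 16.02 and Pparg at 12.89 to 13.35 in log2 signal on the 12 arrays, and Lep, the dimmest, at 2.61 to 7.07, around the detection threshold of 5.77. At 12 h, 1 of the 8 was called higher (Lpl, 0.32, limma adjusted p = 0.0153) and 4 lower: Cidec (-1.44, 1.62e-10), Lep (-2.06, 0.0227), Retn (-0.51, 0.00182) and Slc2a4 (-0.31, 0.0396). The summed linear signal of the list was 156305 to 201846 in DMSO and 170387 to 188663 at 12 h. Fibroblast or preadipocyte markers, 8 of 9 tested, were also present, with sums of 87568 to 104613 in DMSO and 102293 to 107916 at 12 h, where 2 were called higher and 2 lower. Of the brown or beige markers, Ucp1 and Cidea lay below the filter, while Ppargc1a, a coactivator of mitochondrial genes, was 1.14 higher on the log2 scale at 12 h (adjusted p = 2.21e-06) and Cox8b, a respiratory subunit, 0.27 lower (-0.27, 0.0487). The other 2 tested, Dio2 and Elovl3, were not called. Of 6 macrophage markers, Ptprc, Adgre1 and Itgam lay below the filter. The 3 that were tested read 6.99 to 7.63 (Csf1r), 4.89 to 7.06 (Cd68) and 5.67 to 7.08 (Lyz2) in log2 signal. Of 4 endothelial markers, Pecam1, Cdh5 and Tek lay below the filter, and Kdr was tested, at 3.21 to 6.21. No tested marker of either list was called at 12 h. In these bulk samples, fewer cells of a type and less RNA per cell cannot be told apart, and the part of cell makeup in the results below was not tested.

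The family split in both directions as treatment went on. At 12 h, 17 of the 37 carriers had changed against DMSO (45.9%), 10 of them higher and 7 lower, against 28.2% of all genes tested (13.7% higher, 14.6% lower). At 6 h, 7 had changed (18.9%), 2 higher and 5 lower, against 14.2% of all genes (7.24% higher, 6.98% lower). At 3 h, 2 had changed (5.41%), 1 higher and 1 lower, against 1.90% of all genes (1.09% higher, 0.816% lower). A gene was called changed at a Benjamini-Hochberg adjusted p under 0.05 over all 12136 genes, from limma's moderated test on log2 signals. On all 12 arrays the share of carriers called was thus above that of all genes at each time, a description with no test. At 3 and 6 h this rests on 2 and 7 carriers and did not hold with some arrays left out. The median change of the 37 carriers was 0.03, 0.05 and -0.02 on the log2 scale at 3, 6 and 12 h, beside 0.02, 0.01 and -0.01 over all genes. The rises and falls left the family's median close to 0. A test of any difference from DMSO over the 3 times called 14 carriers, where 25.1% of all genes were called. The 3 h count rests on single arrays. It was 0 without DMSO replicate 3 (266 of all genes called) or berberine 3 h replicate 2 (126). It was 1 without DMSO replicate 1 (117) or berberine 3 h replicate 1 (137). The 6 h count was 4 without DMSO replicate 2, where 1523 of 12136 genes were called, a share above that of the carriers.

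**Figure D1:**
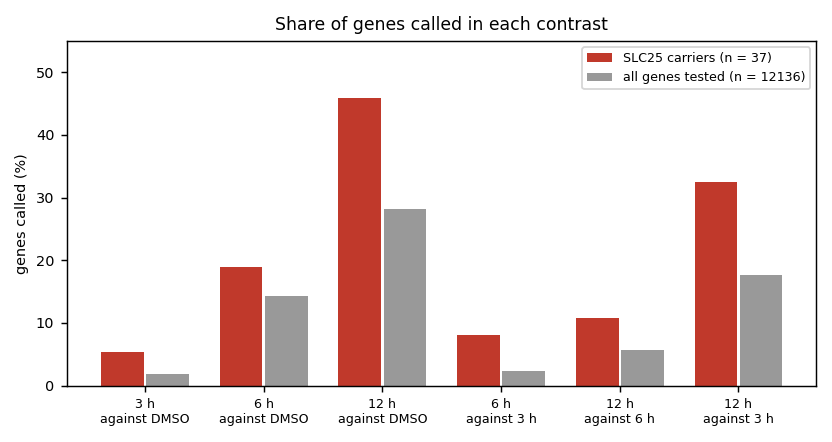
Share of genes called in each comparison, in percent, for the 37 SLC25 carriers tested and for all 12136 genes tested. At 12 h against DMSO the bars stand at 45.9% and 28.2%, and at 3 h at 5.41% and 1.90%. The comparisons with DMSO share the same 3 DMSO arrays.

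In all, 20 carriers were called at 1 or more times and 17 at none. Among the 20, 13 were called at 12 h only, Slc25a33 and Slc25a34 at 6 and 12 h, Slc25a29 and Slc25a32 at all 3 times, and Slc25a22, Slc25a26 and Slc25a44 at 6 h only. The largest absolute change lay at 12 h for 16 of them and at 6 h for the other 4. The sign was the same at all 3 times for 16 of the 20. These counts compare times that share the DMSO arrays. They were not taken over all genes, whose calls rose from 231 at 3 h to 3426 at 12 h. The count of 20, its split by time, late timing and a steady sign are thus not shown to be particular to the carriers. By role, each of the 8 role groups held a call at 12 h, when 28.2% of all genes were called. Among groups with more than 1 tested member, only that of the iron carriers was called throughout, both of them higher. This rests on 2 genes, and the call of Slc25a37 (limma adjusted p = 0.0478) ended under 10 of 16 alternative settings. A call in every role group is thus a description with no test, not shown to be particular to the carriers.

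**Figure D2:**
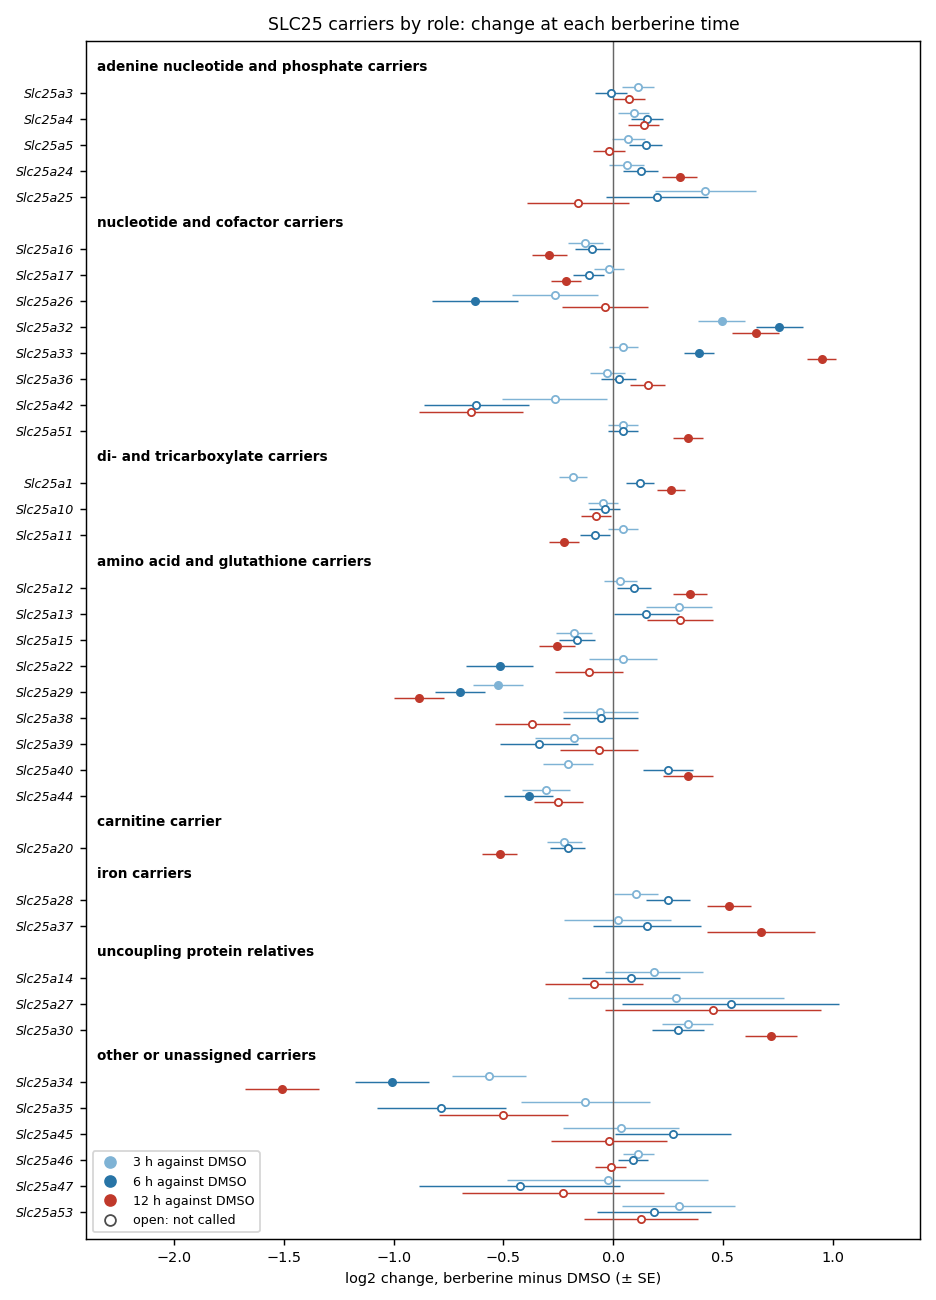
Change of each of the 37 tested carriers against DMSO at 3, 6 and 12 h, as log2 difference with limma's standard error, grouped by known role. Filled points were called and open points were not; at 12 h Slc25a34 lies lowest at -1.51 and Slc25a33 highest at 0.95.

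The genomic sequence before the start sites of 4 members is shown because they include the largest fall and the largest rise of the family (Slc25a34, Slc25a33), the basic amino acid carrier that fell at every time (Slc25a29) and the citrate carrier (Slc25a1). Windows from 250 bases before to 50 after a gene's start were taken from RefSeq (build GRCm38.p6) for 34 of the 44 members, 43 windows in all, and the 250 bases before the start are printed. Capitals mark CACGTG, the E-box read by basic helix-loop-helix factors. All 4 genes lie on the minus strand, at chr4:149774268-149774517, chr16:17928220-17928469, chr12:108835877-108836126 and chr4:141623835-141624084 in the order printed, and each sequence runs 5′ to 3′ towards the gene.
Slc25a33: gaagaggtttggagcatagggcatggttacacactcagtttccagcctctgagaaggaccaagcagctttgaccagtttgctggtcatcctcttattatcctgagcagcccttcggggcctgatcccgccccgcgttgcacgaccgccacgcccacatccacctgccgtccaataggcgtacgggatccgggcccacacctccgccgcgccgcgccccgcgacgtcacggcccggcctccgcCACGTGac
Slc25a1: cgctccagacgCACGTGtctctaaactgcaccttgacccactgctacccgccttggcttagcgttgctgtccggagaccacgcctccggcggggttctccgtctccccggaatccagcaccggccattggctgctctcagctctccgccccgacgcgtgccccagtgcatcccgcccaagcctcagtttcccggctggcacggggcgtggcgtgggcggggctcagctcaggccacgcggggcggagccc
Slc25a29: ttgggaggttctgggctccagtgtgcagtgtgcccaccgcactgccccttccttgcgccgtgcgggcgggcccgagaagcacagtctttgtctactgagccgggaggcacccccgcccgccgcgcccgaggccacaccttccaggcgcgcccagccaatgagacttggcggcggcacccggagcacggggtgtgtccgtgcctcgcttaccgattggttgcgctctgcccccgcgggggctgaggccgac
Slc25a34: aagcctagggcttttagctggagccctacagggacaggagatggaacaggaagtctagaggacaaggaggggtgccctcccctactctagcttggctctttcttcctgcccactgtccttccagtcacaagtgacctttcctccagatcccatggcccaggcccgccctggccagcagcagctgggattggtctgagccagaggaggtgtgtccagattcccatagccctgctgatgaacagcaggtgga
Counted from the start site, the E-box of Slc25a33 began at -8 and that of Slc25a1 at -239. Slc25a29 and Slc25a34 had no E-box in this window. GC made up 64.4%, 70.0%, 71.2% and 58.4% of the printed bases in the same order.

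Over all windows, searched on both strands, an E-box stood in 8 of the 43 carrier windows, those of Slc25a1, Slc25a13, Slc25a14, Slc25a15, Slc25a31, Slc25a33 and Slc25a36, and in 7.15% of the 32851 windows of all genes. Among members with a window it was found in 2 of the 7 that rose, 1 of the 8 that fell and 4 of the 19 that were not called or not tested. The hypoxia response element core ACGTG, whose letters the E-box contains, stood in 11 carrier windows and in 19.62% of all. The cAMP response element TGACGTCA stood in those of Slc25a25 and Slc25a36 (1.79% of all windows), and the NRF1 element in those of Slc25a3 and Slc25a31 (4.603%). The C/EBP-ATF response element TGATGNAA (3.969% of all windows), the ERR element TNAAGGTCA (1.282%) and the extended E-box of TFEB (0.3257%) were matched in no carrier window. The median GC content was 59.67% in the carrier windows and 52.67% in all. A match is a string of letters and no evidence of binding.

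Carriers of nucleotides and cofactors held the largest rise of the family. Of 8 members, all tested, 3 rose and 2 fell at 12 h, 2 rose and 1 fell at 6 h, and 1 rose at 3 h. These were 62.5%, 37.5% and 12.5% of the 8, beside 28.2%, 14.2% and 1.90% of all genes. With groups this small, the shares of role groups are descriptions with no test. Slc25a33 carries pyrimidine nucleotides into the matrix, where they serve mitochondrial DNA and RNA synthesis. Its log2 signal was 11.19, 10.99 and 11.04 in DMSO, 11.14, 11.13 and 11.09 at 3 h, 11.46, 11.52 and 11.42 at 6 h, and 11.93, 12.10 and 12.04 at 12 h. The DMSO and 3 h arrays were mixed, every 6 h array lay above them, and every 12 h array lay above the 6 h arrays. The rise was 0.39 ± 0.07 (SE) at 6 h, 1.31-fold, with limma adjusted p = 0.000809, and 0.95 ± 0.07 at 12 h, 1.93-fold, with adjusted p = 1.93e-08. At 3 h the difference was 0.05 (adjusted p = 0.834). Both calls held under every alternative processing and with any array of the 2 groups compared left out.

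Slc25a32 moves folate and FAD into mitochondria. Its log2 signal was 8.81, 8.77 and 8.56 in DMSO, 9.29, 9.30 and 9.03 at 3 h, 9.57, 9.49 and 9.35 at 6 h, and 9.39, 9.30 and 9.40 at 12 h. All berberine arrays lay above all DMSO arrays from 3 h onward, and the highest single array was at 6 h. The gene rose by 0.50 ± 0.11 at 3 h (1.41-fold, limma adjusted p = 0.0185), by 0.76 ± 0.11 at 6 h (1.69-fold, adjusted p = 0.000141) and by 0.65 ± 0.11 at 12 h (1.57-fold, adjusted p = 0.000178). These calls rest on the brightest of its 3 probe sets: the mean of the probe sets gave 0.39 at 6 h (adjusted p = 0.173) and 0.14 at 12 h (adjusted p = 0.622), and no call at 3 h (adjusted p = 0.583). The 3 h call was also lost without an intensity trend (adjusted p = 0.0661), with only the 2 groups compared (0.0583), and without DMSO replicate 3 (0.0688) or berberine 3 h replicate 1 (0.0942) or 2 (0.111).

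Slc25a51, the mitochondrial NAD+ carrier, rose late. Its log2 signal was 12.59, 12.38 and 12.56 in DMSO, stayed between 12.47 and 12.65 at 3 and 6 h, and was 12.85, 12.78 and 12.93 at 12 h. The 12 h arrays lay above all 9 others. The rise was 0.34 ± 0.07, 1.27-fold, with limma adjusted p = 0.0012, and held under every alternative. Its other kept probe sets were not called at 12 h in a fit over all kept probe sets. They were at 0.08 (limma adjusted p = 0.584) and 0.69 (0.0951).

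Slc25a16 and Slc25a17 fell by small amounts at 12 h. Slc25a16 has been linked to coenzyme A transport, and Slc25a17 carries cofactors into peroxisomes rather than mitochondria. Slc25a16 read 10.95, 11.19 and 10.96 in DMSO and 10.66, 10.71 and 10.86 at 12 h, a fall of 1.22-fold (limma adjusted p = 0.0113). Slc25a17 read 11.16, 10.97 and 11.14 in DMSO and 10.83, 10.96 and 10.83 at 12 h, a fall of 1.16-fold (adjusted p = 0.0263). The groups did not overlap for either gene, but for Slc25a17 the nearest arrays were 10.96 and 10.97. The call of Slc25a16 ended without DMSO replicate 2 (adjusted p = 0.0646) or berberine 12 h replicate 1 (0.0554). That of Slc25a17 ended with only the 2 groups compared (0.0609) and without DMSO replicate 1 (0.115) or 3 (0.0869) or berberine 12 h replicate 1 (0.0921) or 3 (0.0788).

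Slc25a26 brings S-adenosylmethionine, the methyl donor, into the matrix and was called at 6 h only. It read 8.41, 8.86 and 9.07 in DMSO, 8.54, 8.23 and 7.68 at 6 h and 8.82, 8.68 and 8.72 at 12 h in log2 signal. The 6 h arrays overlapped those of DMSO, and the 12 h arrays lay within the DMSO range. The difference was -0.63 ± 0.20 at 6 h (limma adjusted p = 0.0403) and -0.04 at 12 h (adjusted p = 0.917). The 6 h call was lost under most alternatives: without berberine 6 h replicate 3 the difference was -0.40 (adjusted p = 0.198), and it also ended without DMSO replicate 2 (0.103) or 3 (0.166) or berberine 6 h replicate 2 (0.0748), without an intensity trend (0.124), with no filter (0.0555), with dim values raised to the threshold (0.0629) and with only the 2 groups compared (0.0745).

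The 2 other members of this role group were not called. Slc25a42, which carries coenzyme A, was lower than every DMSO array on all 9 berberine arrays: the DMSO arrays read 8.04 to 8.36 in log2 signal, those at 3 h 7.72 to 7.98, those at 6 h 7.11 to 7.95 and those at 12 h 6.91 to 7.81. The 12 h difference of -0.65 ± 0.24 missed the threshold (limma adjusted p = 0.0515). Slc25a36, the paralog of Slc25a33 for pyrimidine nucleotides, differed by 0.16 ± 0.08 at 12 h on its brightest probe set (adjusted p = 0.162), and its other probe sets are given further on.

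Among amino acid and glutathione carriers, 9 of 11 members were tested, 2 rose and 2 fell at 12 h, 3 fell at 6 h and 1 fell at 3 h. These were 44.4%, 33.3% and 11.1% of the 9, beside 28.2%, 14.2% and 1.90% of all genes. Slc25a29, which carries lysine, arginine and other basic amino acids, fell at every time. Its log2 signal was 9.99, 9.68 and 10.13 in DMSO, 9.49, 9.26 and 9.46 at 3 h, 9.31, 9.18 and 9.21 at 6 h, and 9.19, 8.96 and 8.99 at 12 h. Every berberine array lay below every DMSO array. The fall was 1.44-fold at 3 h (limma adjusted p = 0.0197), 1.62-fold at 6 h (adjusted p = 0.000561) and 1.85-fold at 12 h (-0.89 ± 0.11, adjusted p = 1.56e-05). The 6 and 12 h calls held under every alternative. The 3 h call ended without an intensity trend (adjusted p = 0.095), on the mean of probe sets (0.0504) and without DMSO replicate 1 (0.104) or 3 (0.0793) or berberine 3 h replicate 2 (0.12).

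Slc25a22, a glutamate carrier, and Slc25a44, a carrier of branched-chain amino acids, were called lower at 6 h only. Slc25a22 read 8.79, 8.63 and 8.63 in DMSO, 7.97, 8.06 and 8.47 at 6 h and 8.71, 8.53 and 8.47 at 12 h. The 6 h arrays lay below DMSO, and those of 12 h overlapped it. The differences were -0.52 ± 0.15 at 6 h (1.43-fold, limma adjusted p = 0.0317) and -0.11 at 12 h (adjusted p = 0.657). Its call ended with quantile normalization (0.0515), without an intensity trend (0.0757) and without DMSO replicate 1 (0.116), 2 (0.0543) or 3 (0.0557) or berberine 6 h replicate 1 (0.122) or 2 (0.111). Slc25a44 read 9.66, 9.59 and 9.30 in DMSO, 9.12, 9.15 and 9.36 at 3 h, 9.07, 9.07 and 9.25 at 6 h, and 9.31, 9.34 and 9.15 at 12 h. It was below the DMSO mean on all berberine arrays, without overlap at 6 h only, where the difference was -0.39 ± 0.11 (adjusted p = 0.0272). The call was absent on the mean of its probe sets (-0.03, adjusted p = 0.945) and without an intensity trend (0.0598), and ended without DMSO replicate 1 (0.13) or 2 (0.0822) or berberine 6 h replicate 1 (0.0797) or 2 (0.0939).

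Slc25a12 and Slc25a13 are the aspartate-glutamate carriers Aralar and citrin, parts of the malate-aspartate shuttle. Slc25a12 read 10.22, 10.38 and 10.17 in DMSO and 10.61, 10.58 and 10.63 at 12 h. The 12 h arrays were tightly grouped above DMSO, and the gene rose 1.27-fold (0.35 ± 0.08, limma adjusted p = 0.00235). Its paralog Slc25a13 read 7.86, 8.05 and 7.83 in DMSO and 8.49, 8.21 and 7.96 at 12 h, with overlap and a difference of 0.30 ± 0.15 (adjusted p = 0.144). The call of Slc25a12 was lost on the mean of its 3 probe sets (adjusted p = 0.613), of which the other 2 averaged 6.19 and 5.74 in log2 signal, near the detection threshold of 5.77.

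Slc25a40, whose family branch carries glutathione into mitochondria, rose at 12 h. It read 9.64, 9.88 and 9.77 in DMSO, 9.29, 9.78 and 9.61 at 3 h, 9.93, 9.97 and 10.14 at 6 h, and 10.02, 10.25 and 10.04 at 12 h. The rise from DMSO was 1.27-fold at 12 h (limma adjusted p = 0.032), and the call ended without an intensity trend (0.0839) and without DMSO replicate 1 (0.134) or 3 (0.0667) or berberine 12 h replicate 2 (0.14). The other glutathione carrier, Slc25a39, was 9.53, 9.23 and 9.18 in DMSO and 8.95, 9.39 and 9.39 at 12 h, a difference of -0.07 ± 0.18 (adjusted p = 0.834). Whether the changes of these paralogs differ was not tested.

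Slc25a15, the ornithine carrier of the urea cycle, fell by 1.19-fold at 12 h, from 10.34, 10.38 and 10.29 to 10.07, 10.20 and 9.97 (limma adjusted p = 0.0275). The call ended on the mean of probe sets (-0.32, 0.471) and without DMSO replicate 1 (0.0721) or 2 (0.077) or berberine 12 h replicate 1 (0.07) or 3 (0.118). Its other kept probe set averaged 5.25 in log2 signal, below the detection threshold of 5.77. Slc25a38, a glycine carrier needed for haem synthesis, read 8.20, 7.71 and 8.21 in DMSO and 7.58, 7.92 and 7.52 at 12 h, a difference of -0.37 ± 0.17 that was not called (adjusted p = 0.122).

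Slc25a20, the carnitine-acylcarnitine carrier through which fatty acids reach the matrix for oxidation, fell at 12 h. Its log2 signal was 11.90, 11.84 and 11.77 in DMSO, 11.63, 11.61 and 11.60 at 3 h, 11.41, 11.78 and 11.69 at 6 h, and 11.27, 11.30 and 11.39 at 12 h. The 12 h arrays lay below all others, and the 3 h arrays lay below DMSO without a call. The fall at 12 h was 0.52 on the log2 scale (-0.52 ± 0.08, 1.43-fold, limma adjusted p = 9.49e-05) and held under every alternative.

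The di- and tricarboxylate carriers, 3 members, split 1 higher, 1 lower and 1 not called at 12 h, when 28.2% of all genes were called. Slc25a1 exports citrate, the carbon source of cytosolic fatty acid and sterol synthesis. It read 12.33, 12.20 and 12.25 in DMSO, 12.11, 12.07 and 12.04 at 3 h, 12.38, 12.30 and 12.47 at 6 h, and 12.46, 12.48 and 12.63 at 12 h. The 3 h arrays lay below every DMSO array and the 12 h arrays above every one. The 12 h rise was 1.20-fold (0.26 ± 0.06, limma adjusted p = 0.00471) and held under every alternative, whereas the 3 h difference of -0.18 was not called (adjusted p = 0.177). Slc25a11, the oxoglutarate-malate carrier of the malate-aspartate shuttle, fell from 11.06, 10.97 and 11.02 to 10.70, 10.82 and 10.86, 1.17-fold (adjusted p = 0.0212). Its call ended without DMSO replicate 1 (0.0786) or berberine 12 h replicate 1 (0.103). Slc25a10, the dicarboxylate carrier, differed by -0.08 ± 0.07 (adjusted p = 0.455).

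Both iron carriers rose at 12 h, when 13.7% of all genes were called higher. Slc25a28 (mitoferrin 2) and Slc25a37 (mitoferrin 1) bring iron into mitochondria for haem and iron-sulfur clusters, the latter best known from red cell precursors. Slc25a28 read 9.115, 9.003 and 8.868 in DMSO, 9.07, 8.99 and 9.23 at 3 h, 9.27, 9.12 and 9.35 at 6 h, and 9.55, 9.56 and 9.46 at 12 h. The 12 h arrays lay above the other 9, and the rise was 1.44-fold (0.53 ± 0.10, limma adjusted p = 0.000778), kept under every alternative. Slc25a37 read 7.28, 7.21 and 7.09 in DMSO, 7.78, 6.72 and 7.55 at 6 h, and 7.91, 8.10 and 7.60 at 12 h. Its 6 h arrays spread from below to above DMSO. The 12 h rise of 0.67 ± 0.24 only just passed (1.60-fold, adjusted p = 0.0478). It ended under 10 of 16 alternatives, among them the fit without an intensity trend (0.0825) or a filter (0.0818), with raised dim values (0.0504), on the mean of probe sets (0.0588), and without any of DMSO replicates 1 (0.0821), 2 (0.0879) and 3 (0.119) or berberine 12 h replicates 1 (0.109) and 2 (0.167).

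Of the 3 relatives of the uncoupling proteins, Slc25a30 (KMCP1) rose at 12 h, when 28.2% of all genes were called. It read 8.74, 8.63 and 8.92 in DMSO, 9.05, 9.05 and 9.21 at 3 h, 8.81, 9.16 and 9.20 at 6 h, and 9.41, 9.60 and 9.43 at 12 h. The 12 h arrays were the highest, and the 6 h arrays overlapped DMSO. The rise was 1.65-fold (0.72 ± 0.12, limma adjusted p = 0.000174) and held under every alternative. Slc25a14 (BMCP1) differed by -0.09 ± 0.22 at 12 h (adjusted p = 0.829), and Slc25a27 (UCP4) lay around the detection threshold, at 4.62 to 6.19 on the 12 arrays.

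The carriers of adenine nucleotides and phosphate, which supply ATP synthase, included 5 tested members of 8, and 1 was called. Slc25a24, an ATP-Mg/phosphate carrier that sets the adenine nucleotide pool of the matrix, rose 1.23-fold at 12 h, from 11.10, 11.19 and 11.04 to 11.44, 11.45 and 11.35 (0.30 ± 0.08, limma adjusted p = 0.0076). Its call was lost on the mean of its 2 probe sets (adjusted p = 0.308). The ADP/ATP carriers Slc25a4 (ANT1) and Slc25a5 (ANT2) and the phosphate carrier Slc25a3 differed by 0.14 ± 0.07, -0.02 ± 0.07 and 0.07 ± 0.07 at 12 h (adjusted p = 0.171, 0.89 and 0.515). For these 3 the berberine arrays overlapped DMSO at each time on the probe set that stands for the gene. Some other probe sets of Slc25a5, all ending in _x_at, did not overlap: above DMSO at 3 h or 6 h, and below it at 12 h. Slc25a25, another ATP-Mg/phosphate carrier, was 0.42 ± 0.23 at 3 h and -0.16 ± 0.23 at 12 h, neither called (adjusted p = 0.449 and 0.669).

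The largest fall of the family belonged to Slc25a34, a carrier with no settled substrate. Its log2 signal was 9.78, 9.09 and 9.48 in DMSO, 8.97, 9.04 and 8.64 at 3 h, 8.17, 8.67 and 8.48 at 6 h, and 7.88, 8.10 and 7.85 at 12 h. All berberine arrays lay below all DMSO arrays, and the 12 h arrays lay below those of 6 h. Mean signals were 9.45 ± 0.34 in DMSO, 8.44 ± 0.25 at 6 h and 7.94 ± 0.14 at 12 h (SD, n = 3). The difference of -0.57 ± 0.17 at 3 h was not called (limma adjusted p = 0.104), and the fall was 2.01-fold at 6 h (-1.01 ± 0.17, adjusted p = 0.000698) and 2.85-fold at 12 h (-1.51 ± 0.17, adjusted p = 3.31e-06). Both calls held under every alternative. Its close paralog Slc25a35 read 7.02, 6.98 and 7.47 in DMSO, 7.01, 6.20 and 5.92 at 6 h and 6.54, 6.91 and 6.52 at 12 h, with differences of -0.78 ± 0.29 and -0.50 ± 0.29 that were not called (adjusted p = 0.086 and 0.233).

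**Figure D3:**
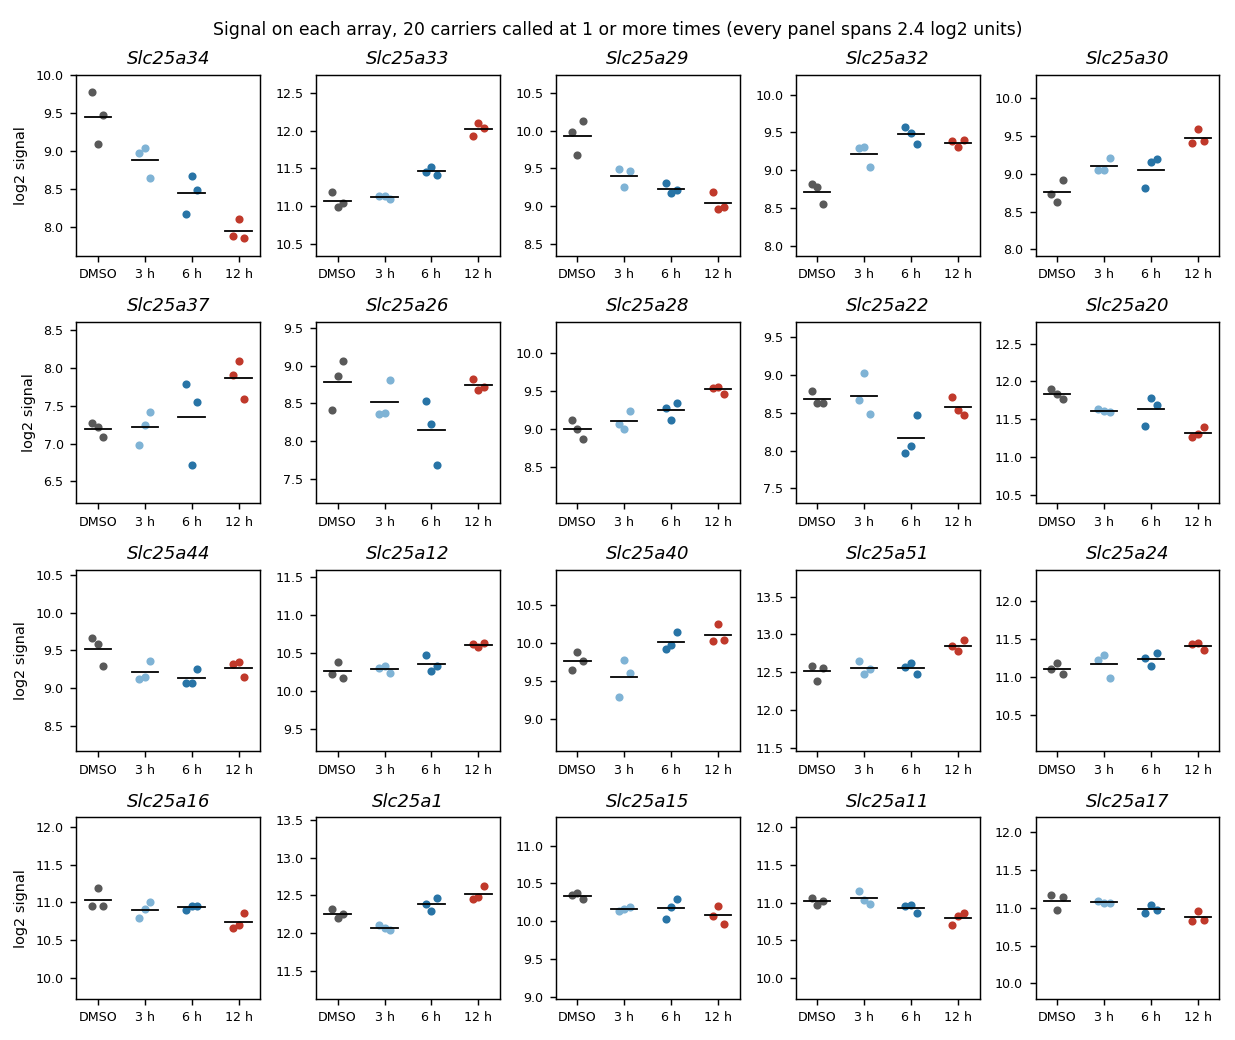
Log2 signal on each of the 12 arrays for the 20 carriers called at 1 or more times, with a bar at each group's mean of 3 arrays; every panel spans the same log2 range, and levels are not comparable between panels. Slc25a34 steps down from 9.45 in DMSO to 7.94 at 12 h, and Slc25a33 steps up from 11.07 to 12.02.

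Comparisons between berberine times use no DMSO mean, though the DMSO arrays enter the shared estimate of spread. They showed which carriers kept moving. From 3 to 12 h, 12 carriers changed, 8 higher and 4 lower, where 17.7% of all genes did. From 3 to 6 h, 3 were higher (2.34% of all genes called), and from 6 to 12 h, 3 were higher and 1 lower (5.69%). Slc25a33 was higher at each step, by 0.34 from 3 to 6 h (limma adjusted p = 0.0129) and by 0.56 from 6 to 12 h (adjusted p = 8.92e-05). Slc25a34 fell by 0.94 from 3 to 12 h (adjusted p = 0.000769), Slc25a40 rose by 0.55 (0.0025), Slc25a1 by 0.45 (9.55e-05) and Slc25a28 by 0.42 (0.00707). These 4 calls from 3 to 12 h and that of Slc25a33 (0.90, 9.83e-08) held under every alternative, and so did the step of Slc25a33 from 6 to 12 h, whereas its step from 3 to 6 h ended without an intensity trend (0.0701) and without berberine 3 h replicate 3 (0.0602) or 6 h replicate 2 (0.0628). The count from 3 to 6 h was 0 without berberine 3 h replicate 3 and 1 without berberine 6 h replicate 2. The count from 6 to 12 h was 1 without berberine 12 h replicate 1, and 2 without berberine 12 h replicate 2 or 3 or berberine 6 h replicate 2 or 3.

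Each gene above stands for its brightest probe set that does not end in _x_at, since those can bind several transcripts, and 18 of the 37 carriers had more than 1 kept probe set, 75 in all. In a fit over all 25053 kept probe sets, 29 of these 75 were called at 12 h, beside 5847 of all. Slc25a29 had 5 probe sets, and all 5 were lower at 12 h, with log2 changes from -2.60 to -0.81, and all were called (adjusted p from 3.08e-05 to 0.00894). The lowest of these, a probe set ending in _x_at, read 8.28, 7.67 and 7.96 in DMSO and 5.24, 6.46 and 4.41 at 12 h, around the detection threshold. All 3 probe sets of Slc25a30 were called higher, by 0.62 to 0.73, and both of Slc25a20 were called lower, at -0.52 and -0.73.

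Slc25a36 had probe sets called in opposite directions. Its brightest probe set read 11.31, 11.53 and 11.45 in DMSO and 11.63, 11.49 and 11.63 at 12 h. The next brightest read 9.33, 9.19 and 9.43 in DMSO and 9.80, 9.81 and 9.91 at 12 h, higher by 0.52 (limma adjusted p = 0.00132). The dimmest of the 3 read 8.08, 8.12 and 7.84 in DMSO, 6.97, 7.42 and 7.21 at 6 h and 6.98, 7.09 and 7.07 at 12 h, lower by 0.96 at 12 h (adjusted p = 0.000576). Thus 1 probe set of the gene overlapped DMSO, 1 lay wholly above and 1 wholly below it. Which transcripts these probe sets read was not tested.

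The next brightest probe set of Slc25a44 was lower at 6 h (-0.42, adjusted p = 0.0457) and at 12 h (-0.41, adjusted p = 0.0298), in the direction of its brightest. Its dimmest, averaging 5.74 in log2 signal and so around the detection threshold, lay above DMSO at 6 h without overlap and without a call (0.72, adjusted p = 0.449) and was called lower at 12 h (-1.55, adjusted p = 0.0375). The other probe sets of Slc25a32 were not called at any time, at 0.10 and -0.35 at 12 h. The brighter of these, ending in _x_at, lay above DMSO at 6 h without overlap (0.49, limma adjusted p = 0.0555). The dimmer averaged 5.82 in log2 signal, near the detection threshold, and was at -0.08 at 6 h. Slc25a5 had 8 probe sets with changes of -0.42 to 0.10 at 12 h, of which 2 ending in _x_at were called lower (adjusted p = 0.00916 and 0.024) and the other 6 were not. The 4 probe sets of Slc25a4 and the 4 of Slc25a39 were not called. For Slc25a5 and Slc25a39, 3 probe sets ending in _x_at were brighter than the one that stands for the gene. In the fit over probe sets, the calls of Slc25a26 at 6 h (adjusted p = 0.0543) and Slc25a37 at 12 h (0.0553) were not made.

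**Figure D4:**
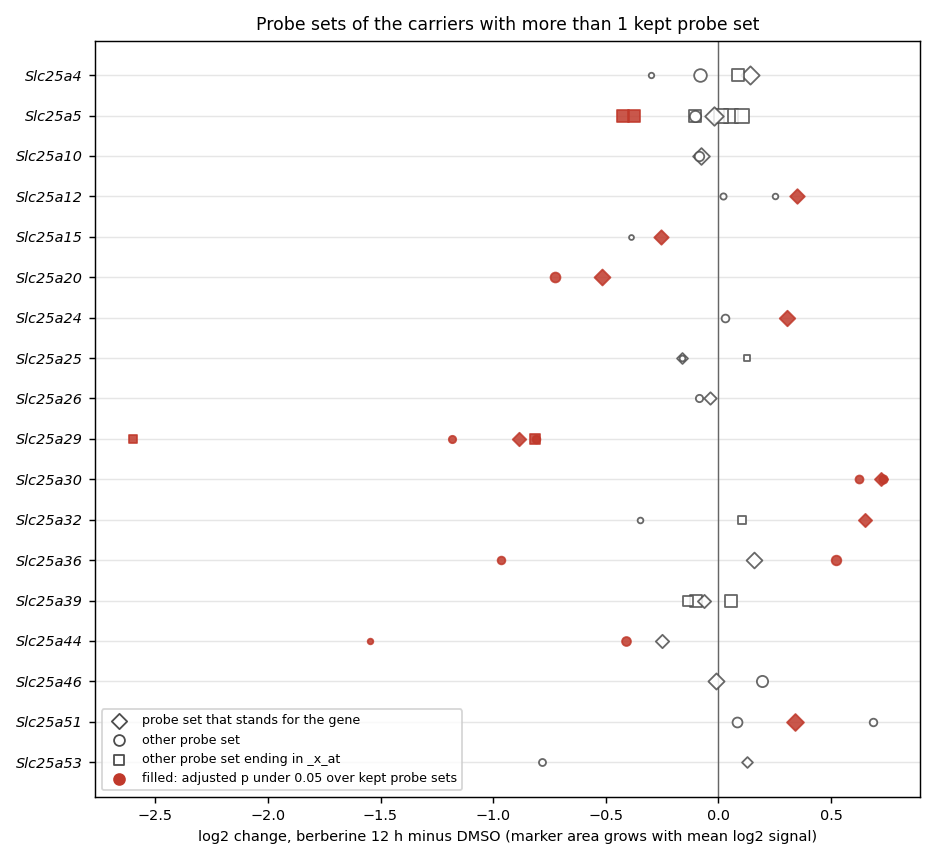
Log2 change at 12 h against DMSO of every kept probe set of the 18 carriers with more than 1, with filled symbols at an adjusted p under 0.05 over all kept probe sets and symbol area growing with mean log2 signal. The 5 probe sets of Slc25a29 all lie below 0, and those of Slc25a36 lie on both sides, from -0.96 to 0.52.

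The 17 tested carriers without a call included those named above and Slc25a45, Slc25a46, Slc25a47 and Slc25a53. Slc25a46, an outer membrane protein tied to mitochondrial shape, differed by -0.01 ± 0.07 at 12 h (limma adjusted p = 0.926). Slc25a45, Slc25a47 and Slc25a53 differed by -0.02 ± 0.26, -0.23 ± 0.46 and 0.13 ± 0.26 and were not called (adjusted p = 0.968, 0.773 and 0.778). The standard errors of these 3 are wide, so a miss of the threshold does not show that they were unchanged. The 7 carriers that did not pass the filter were Slc25a2, Slc25a18, Slc25a23, Slc25a31, Slc25a41, Slc25a48 and Slc25a54. Their 9 probe sets read between 0 and 6.14 in log2 signal, and only those of Slc25a23 and 1 of Slc25a48 reached the threshold, each on 1 of 12 arrays. Among them are Slc25a31, the ADP/ATP carrier of the germ line, and Slc25a18, the paralog of Slc25a22.

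Genes around the family were counted from lists of the import path and of other mitochondrial transport proteins. None of these genes was called at 3 h, when only 1.90% of all genes were. In the import path that inserts carriers, 4 of 14 genes had changed at 12 h, 1 higher and 3 lower, a share near the 28.2% of all genes, with a median change of -0.11. Timm22, the channel of the inner membrane insertase, read 11.16, 11.11 and 11.08 in DMSO and 10.69, 10.75 and 10.42 at 12 h, a fall of 1.41-fold (limma adjusted p = 0.000215). Its partner Timm29 read 10.03, 10.08 and 10.13 in DMSO and 9.47, 9.25 and 9.62 at 12 h, a fall of 1.56-fold (7.09e-05). The small chaperones of the same path went both ways: Timm10b fell by 0.38 (0.00125) and Timm10 rose by 0.34 (0.00244). These 4 calls held under every alternative. At 6 h Timm29 fell by 0.61 (0.000346) and held, though at -0.39 on the mean of probe sets. Timm22 fell by 0.26 at 6 h (0.0477), a call that ended under 10 of 16 alternatives among them leaving out any 1 array of DMSO (adjusted p from 0.0745 to 0.147) or of 6 h (0.0775 to 0.122). Tomm20, a receptor of the outer membrane, was called higher at 6 h by 0.23 (0.0231), a call kept under 7 of 16 alternatives. It was at -0.02 with quantile normalization (0.881), 0.11 with cyclic loess normalization (0.116) and 0.01 on the mean of its probe sets (0.957). The call also ended without DMSO replicate 1 (0.0807) or berberine 6 h replicate 2 (0.122) or 3 (0.0877).

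Of 15 other transport proteins of the inner membrane, 1 was higher and 5 lower at 12 h, 40.0% in all beside 28.2% of all genes (13.7% higher, 14.6% lower), with a median of -0.14 beside -0.01. Mcu, the pore of the calcium uniporter, read 9.24, 9.27 and 9.15 in DMSO and 10.06, 9.66 and 9.67 at 12 h, a rise of 1.49-fold (limma adjusted p = 0.00407). The sideroflexins Sfxn2 and Sfxn5 fell by 0.66 and 0.53 (adjusted p = 0.00904 and 0.00365), and the transporter Abcb10, needed for haem synthesis, fell by 0.54 (0.0202). On the mean of their probe sets Mcu was at 1.53 (0.0471) and Sfxn2 at -1.05 (0.000399). Sfxn2 was uncalled without DMSO replicate 2 (0.0528), and Abcb10 without an intensity trend (0.0703), without DMSO replicate 3 (0.0806) or without berberine 12 h replicate 2 (-0.34, 0.125). Of 5 transport proteins of the outer membrane, the channels Vdac2 and Vdac3 were higher at 12 h by 0.23 (0.0124) and 0.33 (0.000794), also 40.0% of the list. Vdac2 was uncalled without DMSO replicate 1 (0.0747) or berberine 12 h replicate 2 (0.0575). Sfxn4 was also lower at 12 h (-0.53, limma adjusted p = 0.0112), uncalled without DMSO replicate 1 (0.0664) or berberine 12 h replicate 1 (0.0564). At 6 h, Sfxn4 (-0.61, adjusted p = 0.0104), Mcu (0.44, 0.0396) and Vdac2 (0.22, 0.0265) were called. The call of Sfxn4 ended without DMSO replicate 1 (0.0625), that of Mcu without any 1 of the DMSO arrays (0.0616 to 0.109) or berberine 6 h replicate 1 (0.077) or 3 (0.166), and that of Vdac2 without DMSO replicate 1 (0.13) or 2 (0.0736) or berberine 6 h replicate 2 (0.0996) or 3 (0.077). Both of the latter also ended without an intensity trend (0.121 and 0.0832). Among family members with other symbols, 1 of 3 tested was called at 12 h: Mtch1, an outer membrane insertase, fell by 0.35 (0.0091), a call that ended without DMSO replicate 1 (0.0583).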

How the data were processed

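Total RNA of 12 samples was measured on single-colour Affymetrix 3′ arrays, 1 per sample. The deposited values are log2 signals made with MAS5, per the submitters' processing notes; its version is not given in the sources used here. That method applies a single scaling factor to an array, so differences that depend on brightness remain, and weak signals are noisy on the log2 scale. No sequencing depth applies; the number of arrays limits the precision.

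Samples were grouped by their labels. Of 45101 probe sets, 64 were controls; of the other 45037, 34945 had 1 gene symbol in the platform annotation, 932 several and 9160 none. Probe sets stayed in if 3 or more of the 12 arrays reached the median of all non-control values (5.77 on the log2 scale, a linear signal of 54.6), which left 25053. The brightest remaining probe set, on average over the arrays, stood for a gene; those ending in _x_at were used only where no other was left. The mean of each group was fitted with limma 3.58.1 in R 4.3.3 to the 12 arrays together, leaving 8 residual degrees of freedom. The moderated test was two-sided, with a trend of variance on intensity in eBayes, and p-values were adjusted by the Benjamini-Hochberg method over 12136 genes. A fold change is the ratio of 2 geometric means of signal, ± is limma's standard error unless SD is named, and the script was tested on simulated data. Alternatives were quantile and cyclic loess normalization, no intensity trend, robust eBayes, and no filter or a filter at 6 of 12 arrays. Others were dim values raised to the threshold, the mean of a gene's probe sets, only the 2 groups compared, and a replicate block. For a comparison of 2 groups, each array of those 2 groups was also left out, but no array of the other groups. A call that held under every alternative held in 16 settings. No 2 arrays held identical values.

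All members are accounted for, and those called at any time are given on every array. Called genes of other lists are named up to 4 per list and time, with Sfxn4 at 12 h added to these. The members, role groups, lists, motifs and tests were chosen with earlier results of these data known. Motifs were searched in RefSeq windows of build GRCm38.p6, and levels of different genes were not compared.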

Additional observations from a re-analysis of the deposited data

Results flagged for a closer look

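For 12 carriers the change from DMSO differed between berberine times by the test of that difference, which is the comparison of the times themselves. The shared DMSO arrays cancel from the difference but enter the shared estimate of spread. The values below are log2 differences, later minus earlier time, with limma adjusted p over all genes. Of all genes tested, 2.34% were called from 3 to 6 h, 5.69% from 6 to 12 h and 17.7% from 3 to 12 h. Groups of 3 arrays were not searched for single outlying arrays.

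From 3 to 6 h, Slc25a1 was higher by 0.31 (adjusted p = 0.0198), Slc25a33 by 0.34 (0.0129) and Slc25a40 by 0.46 (0.0416). Each ended when 1 of several arrays was left out, with adjusted p up to 0.0841, 0.0628 and 0.179. For Slc25a1 these were berberine 3 h replicates 2 (0.0707) and 3 (0.081) and 6 h replicate 3 (0.0841). For Slc25a33 they were 3 h replicate 3 and 6 h replicate 2, and for Slc25a40 every 6 h array and 3 h replicates 1 and 3. All 3 calls also ended without an intensity trend (0.0904, 0.0701 and 0.154), and that of Slc25a40 with raised dim values (0.058), on the mean of probe sets (0.0836) and with only the 2 groups compared (0.06).

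From 6 to 12 h, Slc25a33 was higher by 0.56 (8.92e-05), Slc25a30 by 0.42 (0.0429) and Slc25a51 by 0.29 (0.017), and Slc25a20 was at -0.31 (0.0289). The call of Slc25a33 held under every alternative. Slc25a30 ended without 6 h replicate 1 (0.172) or 2 (0.066) or any 12 h array (0.0715 to 0.153), with quantile (0.0559) or cyclic loess normalization (0.0574), without an intensity trend (0.0991) or a filter (0.056), with raised dim values (0.0591), on the mean of probe sets (0.133) and with only the 2 groups compared (0.0659), which makes 12 of 16 alternatives. Slc25a51 ended without 6 h replicate 3 (0.0782) or 12 h replicate 1 (0.0513) or 3 (0.0751), without an intensity trend (0.0881) and on the mean of probe sets (0.14). Slc25a20 ended without 6 h replicate 2 (0.152) or 3 (0.101) or 12 h replicate 1 (0.0993) or 2 (0.085), without an intensity trend (0.114) and with only the 2 groups compared (0.0659).

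From 3 to 12 h, Slc25a33 was higher by 0.90, Slc25a40 by 0.55, Slc25a1 by 0.45, Slc25a28 by 0.42, Slc25a30 by 0.38, Slc25a12 by 0.32, Slc25a51 by 0.29 and Slc25a24 by 0.24, while Slc25a34 was at -0.94, Slc25a29 at -0.36, Slc25a20 at -0.29 and Slc25a11 at -0.27. The calls of Slc25a33, Slc25a40, Slc25a1, Slc25a28 and Slc25a34 held under every alternative. Those of Slc25a12 and Slc25a51 held with any array of the 2 groups compared left out but ended on the mean of probe sets (0.449 and 0.0531). Slc25a11 ended without 3 h replicate 1 (0.064) or 12 h replicate 1 (0.0597). Slc25a20 ended without 12 h replicate 1 (0.059) or 2 (0.0514) and without an intensity trend (0.0602), and was at -0.44 on the mean of probe sets (0.000554). Slc25a24 ended without 3 h replicate 1 (0.0566) or 3 (0.219, at 0.15) or 12 h replicate 1 (0.11) or 2 (0.121), without an intensity trend (0.102) or a filter (0.0526), on the mean of probe sets (0.423) and with only the 2 groups compared (0.0534). Slc25a29 ended without 3 h replicate 1 (0.126) or 3 (0.111) or 12 h replicate 2 (0.122) or 3 (0.097), with cyclic loess normalization (0.0537) and without an intensity trend (0.077), while the mean of its probe sets gave -0.69 (0.00231). Slc25a30 ended without 3 h replicate 1 (0.0975) or 2 (0.101) or 12 h replicate 2 (0.129) or 3 (0.0513), without an intensity trend (0.0602) and on the mean of probe sets (0.0968).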

How the results depend on the processing

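Of the 26 calls of carriers against DMSO, 11 held under all 16 alternatives and 15 were lost under at least 1; none turned, and calls were lost in 65 of 416 settings. With no intensity trend, 0 carriers were called at 3 h (8 at an unadjusted p under 0.05, and 93 of all genes), 4 at 6 h, 0 from 3 to 6 h (7 unadjusted, 60 of all genes) and 1 from 6 to 12 h (296 of all genes). The mean of probe sets left 0 at 3 h (7 unadjusted, 114 of all genes, limma), and with only the 2 groups compared 1 carrier was called at 3 h and 2 from 6 to 12 h. Tomm20 at 6 h turned from 0.23 to -0.015 with quantile normalization; the cause was not tested. With 1 array left out, 0 to 3 carriers were called at 3 h (117 to 266 of all genes, 5 to 11 carriers unadjusted), 4 to 8 at 6 h (1116 to 1523), 12 to 17 at 12 h (2683 to 3098), 0 to 2 from 3 to 6 h (85 to 229, 5 to 7 carriers unadjusted), 1 to 5 from 6 to 12 h (376 to 539), 8 to 11 from 3 to 12 h and 12 to 15 in the test over all times. Quantile or cyclic loess normalization moved the median of all genes by at most 0.02 on the log2 scale. The labels' replicate numbers are shared between groups, but samples with the same number did not deviate together (correlations of -0.04 to 0.03 over 18 pairs, 0 above 0.1, and 4 of 12 arrays correlated best with their own number). With a replicate block, 2, 7 and 17 carriers were called at 3, 6 and 12 h, 3, 4 and 12 between times and 15 in the test over all times, and the calls of Slc25a26 at 6 h (adjusted p = 0.0552) and Slc25a37 at 12 h (0.061) were lost. Signals near the detection threshold, such as those of Slc25a27 and the 7 untested carriers, limit what can be seen.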
